A study of Homo sapiens with 18 samples.

Results

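The 32 genes described here make up the folding and stress machinery of the endoplasmic reticulum (ER). They were taken by symbol from a list of ER folding, ER-associated degradation and unfolded protein response (UPR) genes; the rule names functions and not values, but the list was drawn up with earlier results of these data known. All 32 were found among the 60642 gene symbols of the deposited count table. By role they comprised 9 chaperones and co-chaperones, 2 lectin chaperones, 5 disulfide-forming enzymes, 8 degradation genes, 4 sensors and transcription factors, and 4 genes of protein entry into and exit from the ER. All 32 passed the filter on low counts in every fit.

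Proteins destined for the cell surface, secretion or lysosomes fold in the ER with the help of Hsp70 and Hsp90 family chaperones, lectins that bind immature sugar chains, and enzymes that form disulfide bonds; proteins that fail to fold are sent back to the cytosol for degradation. When unfolded proteins build up, the membrane sensors IRE1 (ERN1), PERK (EIF2AK3) and ATF6 start the UPR, and XBP1 and cleaved ATF6 then switch on chaperone and degradation genes through ER stress response elements in their promoters. Gene counts of this kind do not show XBP1 splicing, ATF6 cleavage or phosphorylation of the kinases, so activity of the pathway itself was not measured.

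RNA-seq was performed on 18 libraries in 6 groups of 3, from 2 human colorectal cancer lines. RepSox inhibits the kinase of the type I TGF-beta receptor, and DMSO was its vehicle; HT-29 iZEB1 is an epithelial HT-29 line in which doxycycline (DOX) turns on ZEB1, a transcription factor that drives epithelial-mesenchymal transition. SW620 cells, derived from a lymph node metastasis, had received 10 µM RepSox for 24 h or DMSO alone. HT-29 iZEB1 cells had received DOX plus RepSox, DOX plus DMSO, RepSox without DOX, or DMSO without DOX, with RepSox at 10 µM and DOX at 1 µg/ml. The DOX exposure is given as 24 h in the treatment protocol and as 48 h in the design text. All 4 HT-29 groups carried the inducible gene, so an effect of DOX itself and an effect of ZEB1 cannot be told apart. Nothing in the labels says that replicates came from separate cultures, so the p-values rest on differences among these libraries, whose spread may be purely technical.

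Library totals ranged between 36511596 and 39792807 counts, and levels are given as CPM (counts scaled to a common library size, after TMM scaling). ZEB1 measured 14.6, 15.9 and 17.4 CPM with DOX plus RepSox, 371.5, 385.3 and 376.0 CPM with DOX plus DMSO, 5.04, 5.38 and 5.73 CPM with RepSox alone, and 7.90, 7.38 and 10.3 CPM with DMSO alone. ZEB1 thus rose with DOX in both media (log2 fold change 5.47 ± 0.10 in DMSO and 1.57 ± 0.11 in RepSox, SE), but libraries labelled DOX plus RepSox held far less of it than those labelled DOX plus DMSO (log2 -4.57 ± 0.10, adjusted p = 4.02e-16). RepSox and the lower ZEB1 level cannot be told apart in any comparison between those groups. CDH1, which encodes E-cadherin, averaged 232.0 ± 5.71 CPM with DOX plus DMSO and 469.3 ± 16.2 CPM with DMSO alone, and the TGF-beta target SMAD7 averaged 10.7 ± 1.21 CPM with DOX plus RepSox and 24.2 ± 2.096 CPM with DOX plus DMSO (SD, n = 3 each). The summed level of 10 colorectal epithelial markers was 4474 to 4905 CPM with DOX plus DMSO and 8865 to 10030 CPM with DMSO alone; of these markers 8 fell with DOX and CDH17 rose (log2 2.68). Of 8 tested genes of a goblet-cell list, 5 rose with DOX and 1 fell (median log2 0.96). FCGBP rose by 2.60 and TFF3 by 2.40. The 1 that fell, SPDEF (log2 -0.53), encodes a transcription factor, while the others encode products that are cargo of the ER. Summed over the list of 10, SPDEF included, the level was 44.27 to 49.94 CPM with DOX plus RepSox and 54.78 to 62.67 CPM with DOX plus DMSO. It was 45.37 to 52.42 CPM with RepSox alone and 35.48 to 43.55 CPM with DMSO alone. With RepSox in DOX, 1 of these genes, SPDEF, was higher (log2 0.33) and 4 were lower. The 8 fibroblast markers summed to at most 1.47 CPM in HT-29 iZEB1 and 10 leukocyte markers to at most 2.42 CPM. CDX2 stayed below 5 CPM in HT-29 iZEB1, and KRT20, CDH17 and CLDN7 below 5 CPM in SW620, where the fibroblast markers reached 13.3 CPM with LUM above 5 CPM. Replicate 2 of DOX plus DMSO stood apart from its partners (chi-square per degree of freedom of 32.6 and 42.6 against them, and 8.95 between those 2), as did replicate 1 of DOX plus RepSox (16.1 and 24.1, and 7 between the other two) and replicate 1 of RepSox without DOX (14 and 14.9, and 5.97 between the other two), which also had the lowest mitochondrial share, 2.3%. Meanwhile, mitochondrial transcripts took 4.14%, 2.75% and 5.25% of counts in the DOX plus DMSO libraries, against 3.97% to 4.89% with DMSO alone; the range was 2.76% to 3.53% with DOX plus RepSox and 2.3% to 3.86% with RepSox alone. The part of these differences in the results below was not tested, except where values without a library are given.

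Members' levels differed widely. Per kilobase of exon, in DMSO-treated HT-29 iZEB1 cells, CALR was the most abundant at 240.0 ± 16.0 CPM per kb, followed by PDIA4 at 181.0 ± 6.95, PDIA3 at 180.0 ± 4.14, HSP90B1 at 171.0 ± 1.71 and HSPA5 at 165.0 ± 6.37 CPM per kb (SD, n = 3). PDIA4 and PDIA3 differed by less than their spread, as did HSP90B1 and HSPA5. The sensors EIF2AK3 and ERN1 were near the bottom at 3.33 ± 0.162 and 1.28 ± 0.179 CPM per kb, and the oxidase ERO1B was last at 0.146 ± 0.0181 CPM per kb.

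Promoter sequences are shown to mark which members carry a stress element near their start site. RefSeq windows (GRCh38.p14) of 250 bases before to 50 bases after the start were on hand for 29 of the 32 members. They were searched on both strands for the ER stress response element ERSE (CCAAT and CCACG with 9 free bases between), for ERSE-II (ATTGG and CCACG with 1 free base between) and for the UPR element (TGACG followed directly by TGG). ERSE was found in 8 members and in 0.0769% of all 35116 windows, ERSE-II in 3 members and in 0.0541% of windows, and the UPR element in HYOU1, where it overlapped an ERSE-II, and in 0.729% of windows. Together, ERSE or ERSE-II occurred in 11 of 29 members and in 0.161% of 27305 genes; the elements were first described on promoters of this gene family, so their presence here is background and not a result. Each site is written 5′ to 3′ along the gene's strand, with the fixed letters in capitals. CGTGG marks a site lying on the other strand. The HYOU1 line stands for separate sites of the same sequence, at bases -185 to -175 and at -79 to -69 from the start.
HSPA5: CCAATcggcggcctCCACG
HSP90B1 upstream site: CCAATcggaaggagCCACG
HSP90B1 downstream site: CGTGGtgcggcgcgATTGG
CALR: CGTGGtcgaccatcATTGG
CANX: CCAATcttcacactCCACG
CRELD2: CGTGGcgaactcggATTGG
PDIA6: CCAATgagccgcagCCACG
XBP1: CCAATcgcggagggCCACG
ERO1B: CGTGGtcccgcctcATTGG
SDF2L1: CGTGGaCCAAT
HYOU1: CGTGGtCCAAT
HERPUD1: ATTGGgCCACG

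The upstream 250 bases of 3 promoters give the context of these sites. HSPA5 is a textbook target of the UPR. SDF2L1 moved most among the chaperones with DOX in DMSO and with RepSox in DOX. HERPUD1 carries the same kind of element as SDF2L1 but moved the other way with RepSox in DOX. With DOX in DMSO the change of HERPUD1 did not pass the test. The HSPA5 stretch is chr9:125241344-125241593 on the minus strand, with its exact ERSE match at bases -66 to -48 from the start. The SDF2L1 stretch is chr22:21642052-21642301 on the plus strand, with its ERSE-II at -188 to -178. The HERPUD1 stretch is chr16:56931892-56932141 on the plus strand, with its ERSE-II at -117 to -107. Capitals mark the fixed letters of exact matches. Sites that differ from an element in any fixed letter were not searched for and stay in lower case.
HSPA5 promoter: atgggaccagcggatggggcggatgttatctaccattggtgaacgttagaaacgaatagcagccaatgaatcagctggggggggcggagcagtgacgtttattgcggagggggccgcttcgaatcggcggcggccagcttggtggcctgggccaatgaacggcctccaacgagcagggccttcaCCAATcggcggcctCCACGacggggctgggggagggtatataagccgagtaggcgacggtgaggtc
SDF2L1 promoter: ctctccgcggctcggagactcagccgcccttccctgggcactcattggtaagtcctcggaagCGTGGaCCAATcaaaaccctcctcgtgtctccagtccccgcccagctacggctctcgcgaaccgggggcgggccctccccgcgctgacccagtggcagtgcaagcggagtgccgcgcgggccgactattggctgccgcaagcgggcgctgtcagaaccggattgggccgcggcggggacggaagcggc
HERPUD1 promoter: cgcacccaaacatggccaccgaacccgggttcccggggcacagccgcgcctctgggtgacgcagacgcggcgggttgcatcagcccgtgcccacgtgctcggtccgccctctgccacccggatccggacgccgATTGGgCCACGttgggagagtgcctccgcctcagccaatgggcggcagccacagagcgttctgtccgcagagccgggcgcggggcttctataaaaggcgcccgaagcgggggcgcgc

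The first comparison asked what changes with DOX in the absence of inhibitor. Most ER chaperones fell: 7 of 9 passed the test downward and none upward. The summed level of the 9 was 1514 ± 61.9 CPM with DOX plus DMSO, against 1939 ± 27.9 CPM with DMSO alone (SD, n = 3 each), a difference of -21.9%. Most of this sum comes from HSP90B1, HSPA5 and HYOU1 (803.7, 644.4 and 261.6 CPM with DMSO alone), so it says little about the less abundant chaperones. Across all roles, 18 of 32 genes passed edgeR's quasi-likelihood test at a Benjamini-Hochberg adjusted p below 0.05, 5 higher and 13 lower, while 40.4% of all 16978 genes tested passed it, 19.2% higher and 21.1% lower. The median log2 fold change was -0.08 over the 32 genes and 0.00 over all genes. Scaling by total counts instead gave 7 higher and 11 lower. In a bulk library, fewer cells expressing a gene and less of its RNA per cell cannot be told apart.

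HSPA5, which encodes BiP, the main Hsp70 chaperone of the ER, measured 478.0, 482.5 and 424.4 CPM with DOX plus DMSO, against 641.0, 621.4 and 670.8 CPM with DMSO alone. All 3 DOX libraries lay below all 3 controls, and the log2 fold change was -0.48 ± 0.059 (SE; adjusted p = 3.17e-06). SDF2L1, which works with the co-chaperone DNAJB11, had the largest fall among the chaperones, with 6.14, 8.89 and 7.90 CPM with DOX plus DMSO, against 16.0, 14.8 and 11.5 CPM with DMSO alone. The groups did not overlap although each varied widely (log2 -0.88 ± 0.15, adjusted p = 0.000113). CRELD2, an ER protein that is secreted on stress, measured 13.1, 16.8 and 14.4 CPM, against 23.1, 22.9 and 19.2 CPM (log2 -0.55 ± 0.098, adjusted p = 0.000162). MANF, a BiP cofactor that is also secreted, measured 29.6, 34.9 and 28.5 CPM, against 43.2, 45.4 and 42.8 CPM (log2 -0.49 ± 0.083, adjusted p = 0.000101). Both were lower in every DOX library. DNAJB11, HSP90B1 (the ER member of the Hsp90 family) and HYOU1 (a large Hsp70 relative that exchanges BiP's nucleotide) fell by 0.34, 0.30 and 0.28 on the log2 scale. The co-chaperones DNAJB9 and DNAJC3 had log2 fold changes of -0.04 and -0.08 and did not pass the test.

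The lectins and disulfide enzymes split. CALR, the soluble lectin chaperone, measured 476.7, 562.2 and 435.6 CPM with DOX plus DMSO, against 640.4, 700.4 and 615.9 CPM with DMSO alone, while its membrane-bound relative CANX had a log2 fold change of -0.05. For CALR the groups did not overlap (log2 -0.40 ± 0.080, adjusted p = 0.000481). The protein disulfide isomerases PDIA4, PDIA6 and PDIA3 fell by 0.33, 0.33 and 0.29 on the log2 scale. P4HB, the classical isomerase, measured 517.7, 622.9 and 517.2 CPM, against 626.7, 667.6 and 578.5 CPM, and missed the threshold (log2 -0.17 ± 0.073, adjusted p = 0.0696). ERO1B, which reoxidises the isomerases, went the other way with 2.33, 1.92 and 2.37 CPM, against 0.679, 0.791 and 0.872 CPM (log2 1.502 ± 0.21, adjusted p = 1.33e-05); it is named although it lies below 5 CPM.

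Degradation genes did not follow the chaperones. Their summed level was 616.6 ± 4.79 CPM with DOX plus DMSO and 607.1 ± 15.6 CPM with DMSO alone, with overlapping libraries. Of the 8, SEL1L, the scaffold of the ubiquitin ligase complex, and EDEM2, a mannosidase that marks glycoproteins for disposal, rose by log2 0.26 and 0.20, and none fell. HERPUD1, an adaptor of that complex, measured 52.4, 58.7 and 52.4 CPM, against 50.3, 46.5 and 51.9 CPM, and did not pass (log2 0.14 ± 0.069, adjusted p = 0.112). SYVN1 (the ligase), EDEM1, SELENOS, DERL1 and DERL2 (membrane components of the same route) had log2 fold changes between -0.11 and 0.15 and did not pass either.

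Among the sensors the changes were small and in both directions. XBP1 measured 228.0, 214.7 and 216.5 CPM with DOX plus DMSO, against 251.9, 258.2 and 248.7 CPM with DMSO alone. It was lower in every DOX library (log2 -0.20 ± 0.059, adjusted p = 0.0112). EIF2AK3 measured 21.2, 20.02 and 20.7 CPM, against 17.8, 17.4 and 19.1 CPM (log2 0.20 ± 0.074, adjusted p = 0.0414). ERN1 and ATF6 had log2 fold changes of 0.14 ± 0.10 (adjusted p = 0.309) and 0.08 ± 0.070 (adjusted p = 0.391), with overlapping libraries. Of the entry and exit genes, SEC24D, a cargo-binding subunit of the COPII coat, rose furthest, with 61.3, 68.4 and 62.3 CPM, against 40.5, 39.3 and 43.4 CPM (log2 0.65 ± 0.066, adjusted p = 2.99e-07). SEC61A1, the pore of the protein channel, fell by 0.19 on the log2 scale, and SEC61B and SSR1 did not pass.

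Of the 18 calls, 13 held in each of the 17 alternatives run; those of SEL1L, EDEM2, XBP1, EIF2AK3 and SEC61A1 were lost in at least 1. Leaving out replicate 2 of DOX plus DMSO, the library that stands apart, left 18 calls.

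**Figure D1:**
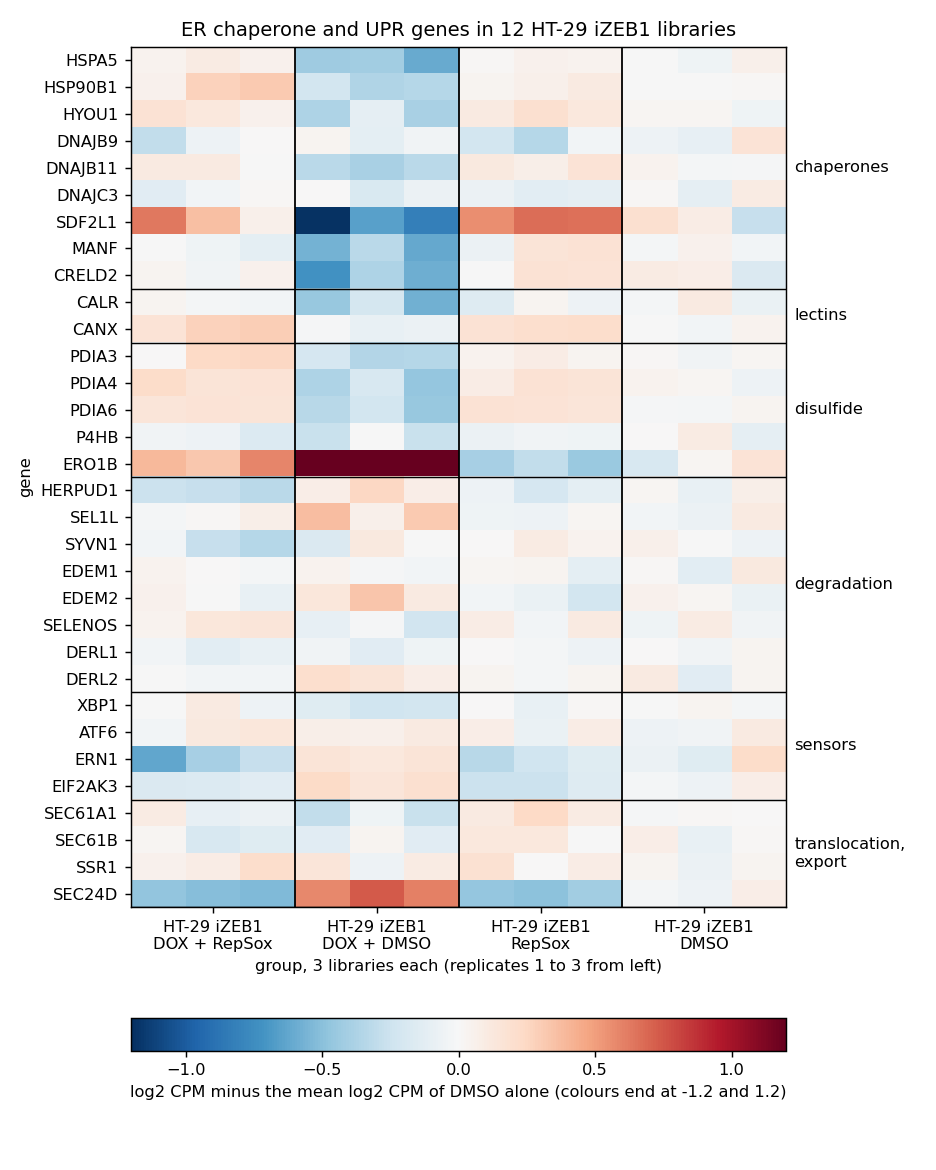
Level of each of the 32 genes in the 12 HT-29 iZEB1 libraries, as log2 CPM minus the mean log2 CPM of the DMSO libraries (colour; blue lower, red higher); rows are genes by role and columns are libraries by group. The rows of the 7 called chaperones, of CALR and of PDIA3, PDIA4 and PDIA6 are blue in the 3 DOX plus DMSO columns, while ERO1B and SEC24D are red there.

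The next comparison asked what RepSox does when DOX is present. Of the 9 chaperones 7 were higher with RepSox and none lower, as were both lectins and 3 isomerases. The summed chaperone level was 2122 ± 85.2 CPM with DOX plus RepSox, against 1514 ± 61.9 CPM with DOX plus DMSO, a difference of 40.2%. In all, 22 of 32 genes passed the test, 14 higher and 8 lower, beside 52.2% of all genes (26.8% higher and 25.5% lower). The median log2 fold change was 0.06, against -0.01 over all genes. This comparison shares its 3 DOX plus DMSO libraries with the previous one, so a deviation in them moves both in opposite directions, and the values stand side by side without a test of likeness.

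SDF2L1 measured 21.8, 17.9 and 14.6 CPM with DOX plus RepSox, against 6.14, 8.89 and 7.90 CPM with DOX plus DMSO (log2 1.23 ± 0.15, adjusted p = 1.29e-06). HSPA5 measured 664.1, 687.8 and 668.1 CPM, against 478.0, 482.5 and 424.4 CPM (log2 0.53 ± 0.059, adjusted p = 4.49e-07). For both, every RepSox library was above every DMSO library. CRELD2 rose by log2 0.56 ± 0.098 (adjusted p = 9.68e-05), and HSP90B1, with 835.4, 970.8 and 998.7 CPM against 690.6, 626.3 and 633.8 CPM, by log2 0.51 ± 0.066 (adjusted p = 2.77e-06). Here replicate 1, which stands apart, was the lowest of the 3 RepSox libraries and still above the DOX plus DMSO libraries. PDIA4, PDIA6, PDIA3, MANF, DNAJB11, HYOU1, CALR and CANX were higher by log2 0.29 to 0.51. CANX had not passed the test with DOX. DNAJB9, DNAJC3 and P4HB had log2 fold changes of -0.08, 0.02 and 0.08 and did not pass in either comparison.

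Of the 8 degradation genes 4 were lower and 1 higher with RepSox, and of the 4 sensors and transcription factors 2 were lower and 1 higher. HERPUD1 measured 41.4, 40.9 and 39.5 CPM with DOX plus RepSox, against 52.4, 58.7 and 52.4 CPM with DOX plus DMSO (log2 -0.43 ± 0.069, adjusted p = 3.52e-05). ERN1 measured 8.97, 10.5 and 11.5 CPM, against 15.4, 15.2 and 15.4 CPM (log2 -0.58 ± 0.11, adjusted p = 0.000159). EIF2AK3 measured 16.0, 16.2 and 16.5 CPM, against 21.2, 20.02 and 20.7 CPM (log2 -0.36 ± 0.074, adjusted p = 0.000517). None of these 3 overlapped between groups, so the messages of 2 stress sensors were lower in the same libraries in which BiP's was higher. SEL1L, EDEM2 and SYVN1 were lower by 0.24, 0.22 and 0.20 on the log2 scale, whereas SELENOS was higher by 0.21. XBP1, with 252.9, 272.9 and 241.7 CPM against 228.0, 214.7 and 216.5 CPM, was higher by log2 0.21 ± 0.059 (adjusted p = 0.00583), and ATF6 had a log2 fold change of -0.01 ± 0.070 (adjusted p = 0.885). SEC24D fell to 29.4, 28.9 and 28.4 CPM with DOX plus RepSox, against 61.3, 68.4 and 62.3 CPM with DOX plus DMSO, the largest fall among the members in this comparison (log2 -1.16 ± 0.068, adjusted p = 9.73e-11). ERO1B was lower by log2 -1.08 ± 0.20, at 1.02, 0.972 and 1.17 CPM against 2.33, 1.92 and 2.37 CPM. Of the 22 calls, 17 held in each of the 17 alternatives; the 5 lost in some were SEL1L, SYVN1, EDEM2, SELENOS and XBP1.

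**Figure D2:**
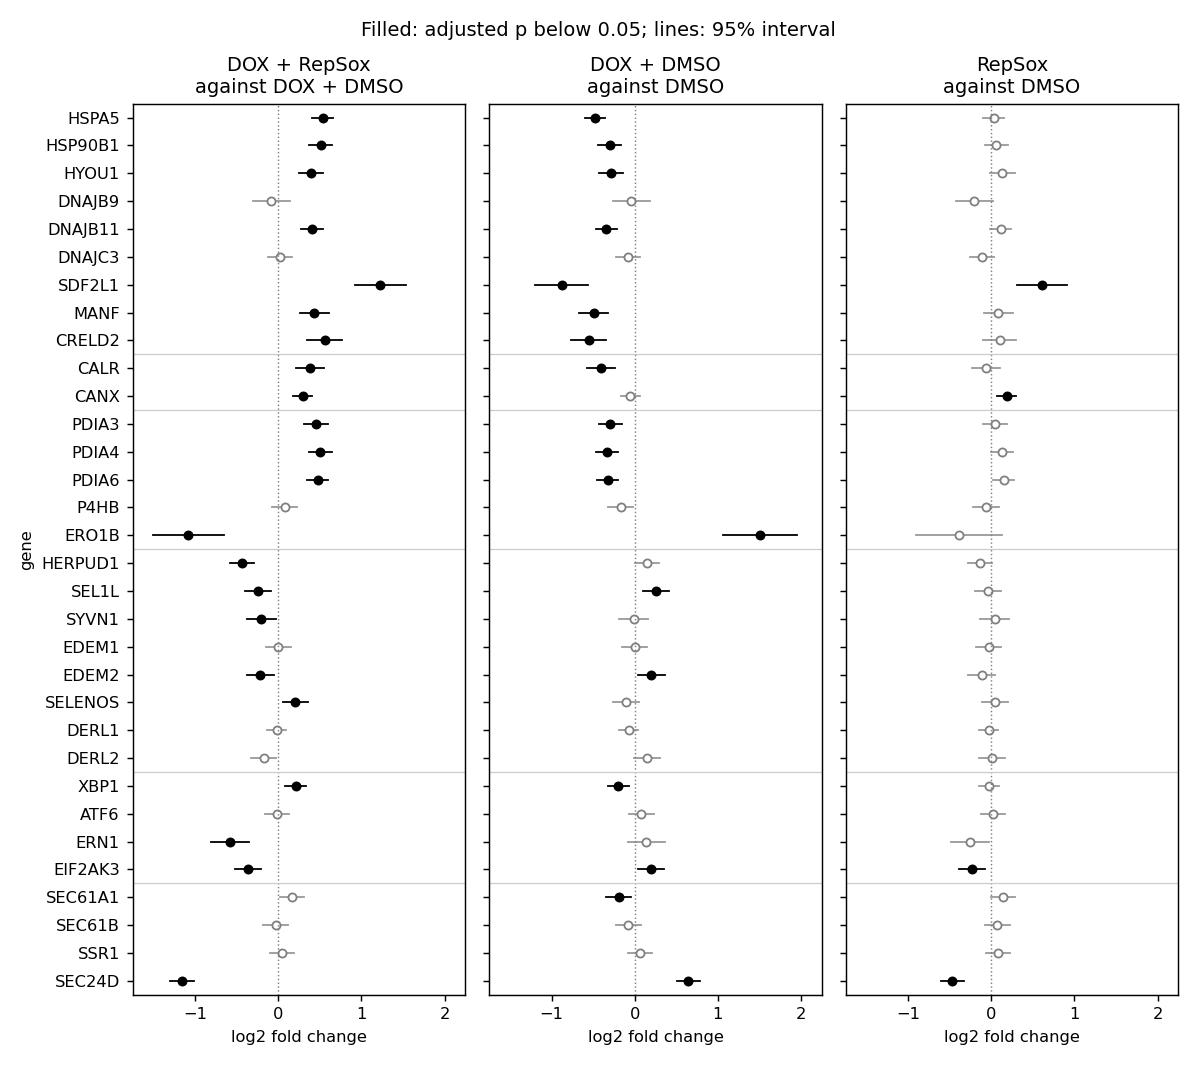
Fitted log2 fold change (point) and 95% interval (line) of each gene for DOX plus RepSox against DOX plus DMSO, DOX plus DMSO against DMSO, and RepSox against DMSO; filled points passed the test. With RepSox in DOX, 14 genes were higher and 8 lower; with DOX, 5 were higher and 13 lower; with RepSox alone, 2 were higher and 2 lower.

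Set beside the promoter windows shown above, 8 of the 11 members with an ERSE or ERSE-II fell with DOX, 1 (ERO1B) rose and 2 (CANX and HERPUD1) did not pass; the median log2 fold change was -0.30. Of the 18 members whose windows hold no exact match to either, 4 fell, 3 rose and 11 did not pass, with a median of -0.03. With RepSox in DOX, 9 of the 11 were higher and 2 lower (median 0.40), while of the 18, 4 were higher, 5 lower and 9 did not pass (median -0.01). The exceptions were ERO1B, with an ERSE, and HERPUD1, with an ERSE-II. SDF2L1 and HERPUD1, which carry the same element, had log2 fold changes of 1.23 and -0.43 in that comparison. Over all genes tested, 21.1% fell and 19.2% rose with DOX, and 26.8% were higher and 25.5% lower with RepSox in DOX. An ERSE or ERSE-II occurs in 44 of 27305 genes, and those outside the members were not examined. The medians with and without an element were 0.06 and 0.01 for RepSox without DOX, and 0.03 and 0.03 for DOX under RepSox. They were 0.04 and 0.05 for RepSox in SW620, and -0.21 and -0.23 for SW620 against HT-29 iZEB1 in DMSO. For the RepSox effect between the lines they were -0.02 and 0.05. For the interaction, which also uses the DOX plus DMSO libraries, they were 0.32 and -0.01. These counts and medians describe windows and members chosen with the results known and were not tested.

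With RepSox in the absence of DOX, 4 of 32 genes passed the test, 2 higher and 2 lower, beside 25.3% of all genes (12.5% higher and 12.8% lower). The 32 genes summed to 8049 ± 116 CPM with RepSox and 7694 ± 13.1 CPM with DMSO (SD, n = 3 each), 4.61% higher without overlap. Summed chaperones, lectins, disulfide enzymes and entry and exit genes were higher by 4.61%, 7.01%, 4.53% and 7.55%, also without overlap. Sums of degradation genes and of sensors overlapped (-1.65% and -1.97%). SDF2L1 measured 20.6, 22.3 and 22.1 CPM with RepSox, against 16.0, 14.8 and 11.5 CPM with DMSO, and did not overlap (log2 0.61 ± 0.14, adjusted p = 0.0037). CANX measured 1094, 1121 and 1122 CPM, against 969.9, 947.5 and 999.9 CPM (log2 0.19 ± 0.055, adjusted p = 0.0182). SEC24D was lower in all 3 RepSox libraries, at 29.6, 29.2 and 30.7 CPM, against 40.5, 39.3 and 43.4 CPM (log2 -0.47 ± 0.068, adjusted p = 5.95e-05). EIF2AK3, at 15.1, 15.1 and 16.3 CPM against 17.8, 17.4 and 19.1 CPM, was also lower (log2 -0.23 ± 0.075, adjusted p = 0.031). HSPA5 had a log2 fold change of 0.03 with a 95% interval of -0.10 to 0.15, XBP1 of -0.03 (-0.15 to 0.10), ATF6 of 0.02 (-0.13 to 0.17) and ERN1 of -0.26 (-0.48 to -0.03; adjusted p = 0.0896). The calls of CANX and EIF2AK3 were lost in at least 1 alternative, and leaving out replicate 1 of DMSO left 2 calls.

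The difference between the RepSox effect with and without DOX was tested as an interaction, and 13 of 32 genes passed, 11 positive and 2 negative, beside 22.6% of all genes (13% positive and 9.61% negative). SDF2L1 had the largest positive interaction, of log2 0.62 (adjusted p = 0.0356). HSPA5 had an interaction of log2 0.51 ± 0.084 (adjusted p = 0.000194) and CRELD2 of 0.46 (adjusted p = 0.0211). HSP90B1 and CALR had 0.45 each, PDIA3 0.41 and PDIA4 0.38. The RepSox effect on these genes was larger in DOX-treated than in untreated cells. SEC24D (log2 -0.69 ± 0.095, adjusted p = 3.15e-05) and HERPUD1 (log2 -0.30 ± 0.098, adjusted p = 0.0342) had negative interactions. XBP1 had an interaction of 0.24 ± 0.083 (adjusted p = 0.0473), while those of ATF6, ERN1 and EIF2AK3 were -0.04, -0.32 and -0.13 and did not pass (adjusted p = 0.843, 0.138 and 0.439). Of the 13 calls, 7 held in each alternative, and those of DNAJB11, SDF2L1, MANF, CRELD2, HERPUD1 and XBP1 were lost in at least 1. Leaving out replicate 1 of DMSO left 7 calls, and leaving out replicate 2 of DMSO, replicate 1 of RepSox or replicate 2 of DOX plus RepSox left 8 in each case.

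Under RepSox, DOX changed none of the 32 genes by edgeR's test, beside 0.477% of all genes (0.0942% higher and 0.383% lower), and DESeq2 also called 0; 6 members had an unadjusted p below 0.05, as did 14.1% of all genes. HSPA5 measured 664.1, 687.8 and 668.1 CPM with DOX plus RepSox, against 648.8, 667.1 and 663.9 CPM with RepSox alone (log2 0.03, 95% interval -0.09 to 0.16). The interval leaves out a fall of the size seen in DMSO. For SDF2L1 the log2 fold change was -0.26 (-0.55 to 0.03), for CALR 0.05 (-0.12 to 0.22), for XBP1 0.04 (-0.08 to 0.16), for ERN1 -0.18 (-0.41 to 0.05) and for SEC24D -0.04 (-0.19 to 0.10). The count of 0 rests on replicate 1 of DOX plus RepSox: without it 5 members passed, HSP90B1 (log2 0.23) and PDIA3 (0.19) higher and SYVN1 (-0.36), SEC61A1 (-0.23) and SEC61B (-0.25) lower, and the calls over all genes were 1670 in place of 81. HSPA5, SDF2L1, CALR and SEC24D were not among the 5. ZEB1 was at 16.0 ± 1.39 CPM in these DOX libraries, as given above.

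**Figure D3:**
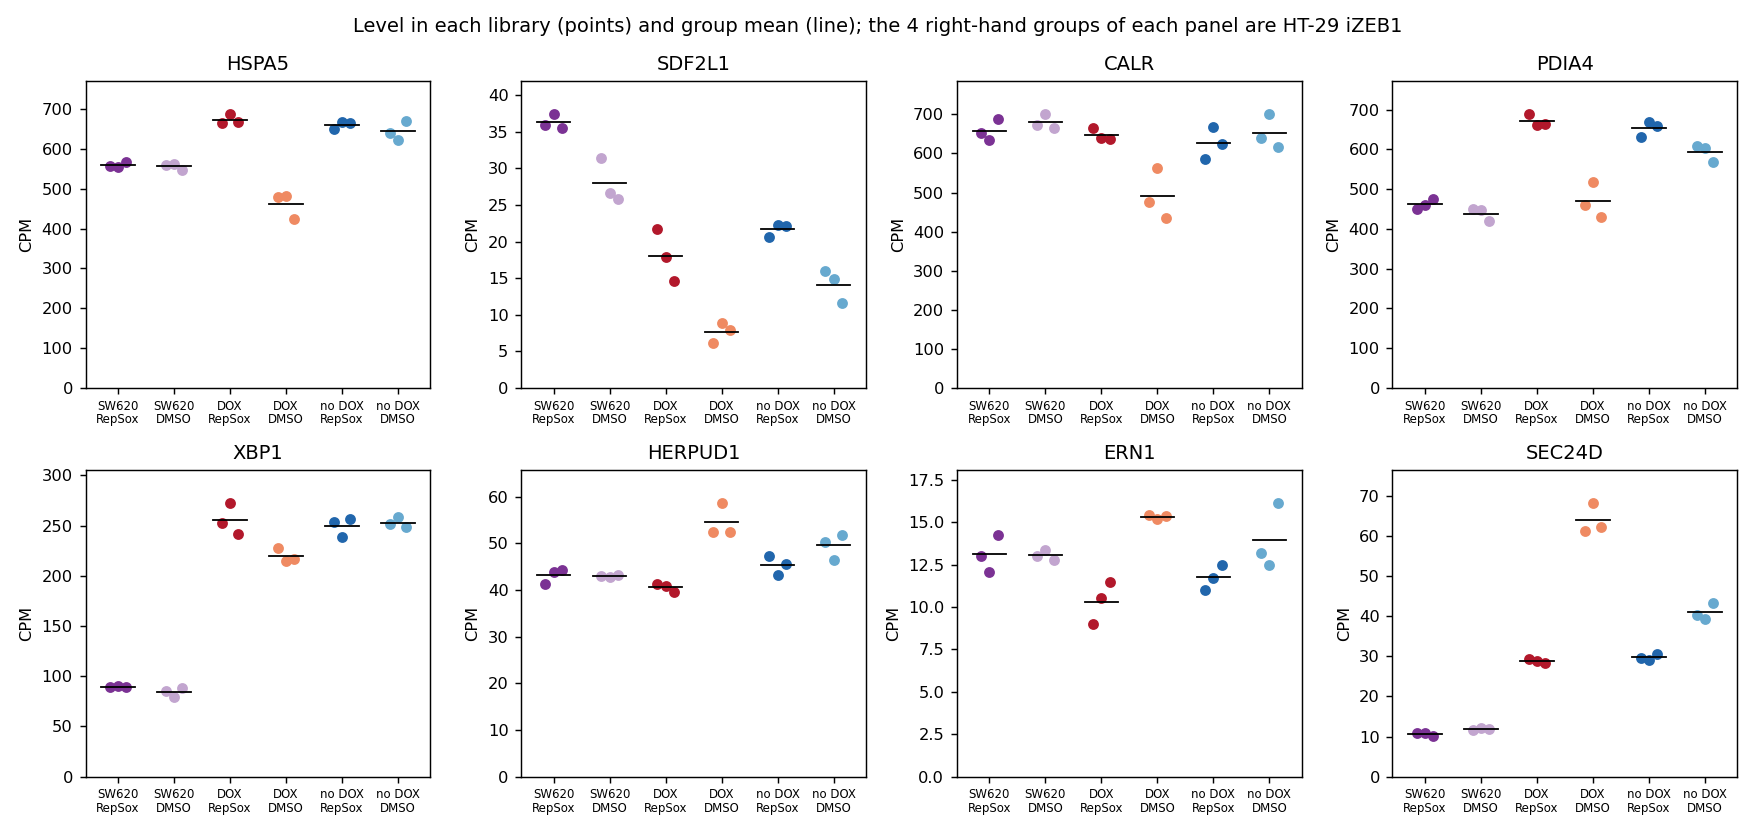
CPM of 8 genes in each of the 18 libraries (points) with the group mean (line), in SW620 with RepSox or DMSO and in HT-29 iZEB1 with DOX plus RepSox, DOX plus DMSO, RepSox or DMSO. HSPA5, SDF2L1, CALR, PDIA4 and XBP1 are lowest of the HT-29 groups in DOX plus DMSO, and HERPUD1, ERN1 and SEC24D highest there.

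Related gene lists place the ER genes among their neighbours. With DOX in DMSO, 15 of 19 cytosolic heat shock genes, which answer to HSF1 rather than to the UPR, fell and 2 rose, with a median log2 fold change of -0.45; FKBP4, a co-chaperone of Hsp90, averaged 125.1 ± 5.98 CPM with DOX plus DMSO and 220.2 ± 10.5 CPM with DMSO alone (log2 -0.81). Lower chaperone messages were therefore measured in the cytosolic set as well as in the ER set. Of 23 genes of the PERK-ATF4-CHOP branch, 13 fell and 3 rose (median -0.33): the pseudokinase TRIB3 fell by 1.08 and the amino acid transporter SLC7A5 by 0.99 on the log2 scale, BBC3 rose by log2 0.87, and DDIT3, which encodes CHOP, stayed below 5 CPM. With RepSox in DOX, 13 heat shock genes were higher and 4 lower (median 0.56), and 11 branch genes were higher and 3 lower (median 0.34), SLC7A5 by log2 1.28. With DOX the heat shock list was called at 89.5% and the branch list at 69.6%, beside 40.4% of all genes; with RepSox in DOX they were called at 89.5% and 60.9%, beside 52.2%. The median over all genes was 0.00 with DOX and -0.01 with RepSox.

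Of 27 N-glycan assembly genes, 5 fell and none rose with DOX (median -0.09), and 13 were higher and 2 lower with RepSox in DOX (median 0.18); the mannosyltransferase ALG3 had log2 fold changes of -0.35 and 0.75. Of 24 other degradation genes, 10 rose and 5 fell with DOX (median 0.05). Of 24 COPII and ER exit genes, 6 rose and 3 fell (median 0.03), with SEC23A, the partner of the SEC24 subunits, up by log2 0.71 and SEC23B down by 0.43. Of 31 other folding enzymes, 6 rose and 8 fell (median -0.02), TMX4, a membrane-bound thioredoxin relative, most of all (215.2 ± 6.78 CPM with DOX plus DMSO and 39.3 ± 2.53 CPM with DMSO alone; log2 2.46). Of 22 other regulators, 5 rose and 4 fell (median -0.03), CREB3L1, an ER-anchored transcription factor, by log2 1.03. Of 22 translocon genes, 2 rose and 4 fell (median -0.04). With DOX these lists were called at 18.5% (N-glycan), 62.5% (other degradation), 37.5% (COPII), 45.2% (other folding enzymes), 40.9% (other regulators) and 27.3% (translocon), against 40.4% of all genes. Apart from the degradation list they lay near or below that share, and the N-glycan list with RepSox in DOX, at 55.6%, was near its background of 52.2%. These genes were picked by the fixed rule of size within each list.

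The last comparisons concern SW620, in which RepSox passed the test for 8 of 32 genes, 7 higher and 1 lower, beside 19.5% of all 17147 genes (10.2% higher and 9.24% lower); scaling by total counts gave 5 higher and 2 lower. SDF2L1 measured 35.95, 37.45 and 35.51 CPM with RepSox, against 31.4, 26.6 and 25.8 CPM with DMSO (log2 0.38 ± 0.069, adjusted p = 0.00029). DNAJB11 measured 69.2, 67.9 and 69.8 CPM, against 57.6, 58.9 and 57.0 CPM (log2 0.25 ± 0.050, adjusted p = 0.000613). Both were higher in every RepSox library, and theirs were the 2 calls that held in each of the 11 alternatives. SELENOS and DERL2 were higher by log2 0.22 ± 0.061 (adjusted p = 0.0104) and 0.18 ± 0.054 (adjusted p = 0.0174), and HYOU1, CANX and PDIA6 by 0.16, 0.16 and 0.14. ERO1B was lower, at 4.07, 3.38 and 3.16 CPM against 5.30, 4.96 and 4.52 CPM (log2 -0.48 ± 0.13, adjusted p = 0.0121). HSPA5 had a log2 fold change of 0.01 (95% interval -0.07 to 0.09), XBP1 of 0.09 (-0.01 to 0.20), ATF6 of 0.05 (-0.08 to 0.17), ERN1 of 0.01 (-0.16 to 0.18) and EIF2AK3 of 0.05 (-0.13 to 0.22). Leaving out replicate 1 of DMSO, replicate 1 of RepSox or replicate 3 of RepSox left 3 calls in each case, and leaving out replicate 2 of DMSO left 5. Mitochondrial transcripts took 4% to 4.81% of counts with RepSox, against 3.77% to 4.17% with DMSO; their part in these small differences was not tested. The effect in SW620 differed from that in untreated HT-29 iZEB1 for SEC24D alone of the 32 (log2 0.30 ± 0.097, adjusted p = 0.0472), beside 10.4% of all 19107 genes (5.39% positive and 4.99% negative), and that call was lost without any of 13 of the 18 libraries taken singly. SEC24D measured 10.96, 10.89 and 10.11 CPM with RepSox, against 11.73, 12.15 and 11.76 CPM with DMSO.

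Between the lines in DMSO, 26 of 32 genes passed, 6 higher and 20 lower in SW620, beside 76.6% of all genes (40.1% higher and 36.5% lower); the share of members that passed, 81.2%, is close to that background. Of the 4 sensors and transcription factors 3 were lower in SW620 and none higher, and all 4 entry and exit genes were lower. XBP1 measured 85.1, 79.0 and 88.0 CPM in SW620, against 251.9, 258.2 and 248.7 CPM in HT-29 iZEB1 (log2 -1.59 ± 0.056, adjusted p = 1.56e-18). DERL1, a derlin of the degradation channel, measured 54.1, 53.9 and 55.2 CPM, against 271.5, 261.9 and 276.1 CPM (log2 -2.31 ± 0.055, adjusted p = 4.48e-22), and PDIA6 measured 94.1, 89.1 and 96.6 CPM, against 370.2, 368.1 and 381.6 CPM (log2 -2.001 ± 0.057, adjusted p = 1.61e-20). SEC24D and DNAJB9 were lower by 1.79 and 1.49 on the log2 scale. No library of one line overlapped the other for these 5.

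Of the 9 chaperones, 4 were higher and 5 lower in SW620, and the 2 other members that were higher were DERL2 and ERO1B. MANF measured 89.2, 87.3 and 85.5 CPM in SW620, against 43.2, 45.4 and 42.8 CPM in HT-29 iZEB1 (log2 1.00 ± 0.071, adjusted p = 3.04e-12). SDF2L1 was higher by log2 0.99 ± 0.13 (adjusted p = 1.76e-07), DERL2 by 0.68 ± 0.064 (adjusted p = 6.2e-10), CRELD2 by 0.50 and DNAJB11 by 0.30; ERO1B, at 0.781 ± 0.0968 CPM in HT-29 iZEB1, was higher in SW620 by log2 2.65 ± 0.18. HSPA5 differed less and was lower, with 560.7, 561.8 and 545.8 CPM in SW620, against 641.0, 621.4 and 670.8 CPM in HT-29 iZEB1 (log2 -0.21 ± 0.051, adjusted p = 0.000551). Scaling by total counts shifted the median of all genes by 0.12 in this comparison and left 22 calls, without HSPA5, HSP90B1, HERPUD1, SYVN1 and SEC61B and with CALR higher. ATF6 and EIF2AK3 were lower by 0.49 ± 0.067 (adjusted p = 4.75e-07) and 0.63 ± 0.076 (adjusted p = 4.18e-08) on the log2 scale, and ERN1 had a log2 fold change of -0.10 ± 0.10 (adjusted p = 0.379).

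**Figure D4:**
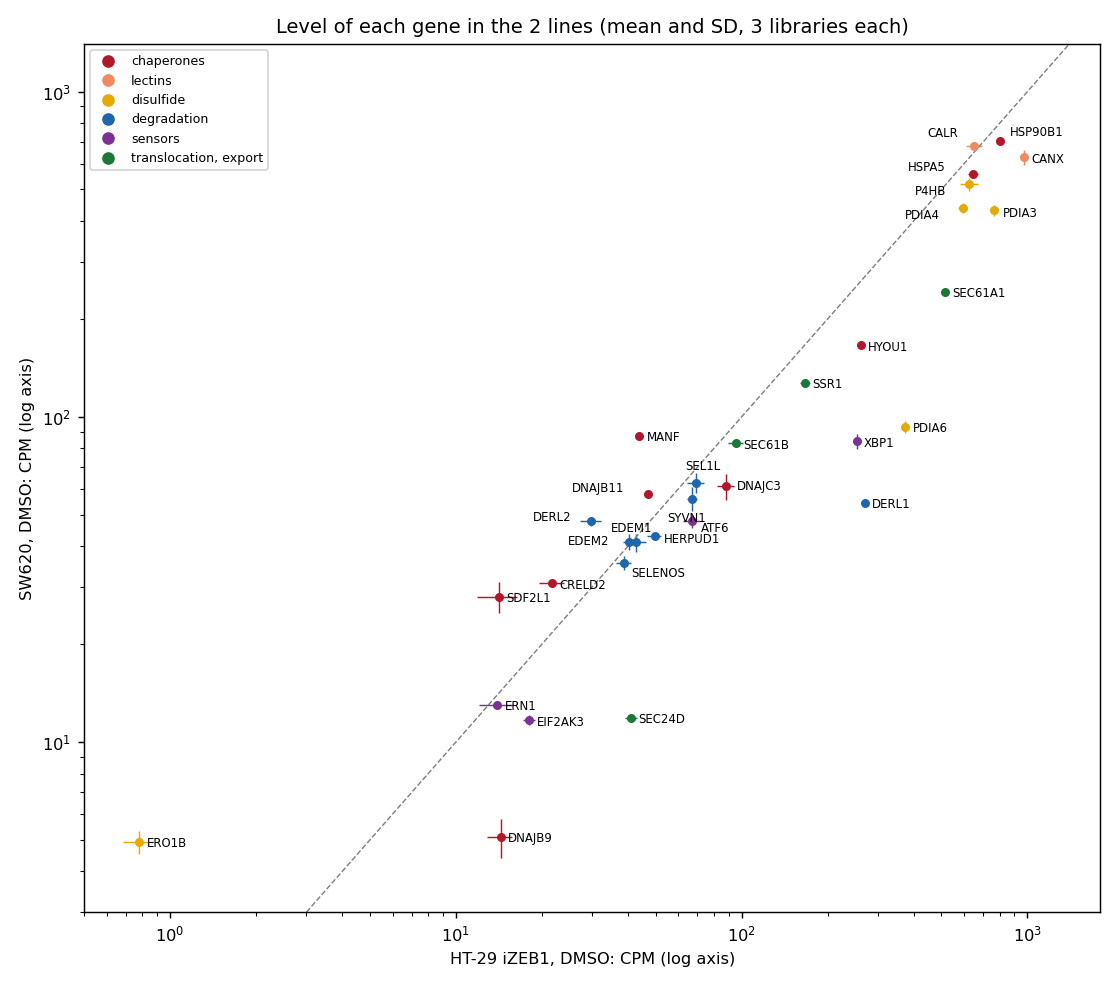
Mean CPM of each gene in DMSO-treated SW620 (vertical, log axis) against DMSO-treated HT-29 iZEB1 (horizontal, log axis), with SD bars over 3 libraries and colours by role; the dashed line marks equal levels. DERL1, PDIA6, XBP1 and SEC24D lie well below the line and ERO1B, MANF and SDF2L1 above it.

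Some members share reads or exons with neighbours, which limits their values. The pseudogene PDIA3P1 held 5.62% as many counts as PDIA3. The strand setting of the counting is not given in the sources used here. Other annotated genes overlap 33.3% of PDIA3's exon bases, 25.2% of PDIA6's, 23.2% of DNAJB11's, 15.1% of EIF2AK3's and 14.9% of SYVN1's. SYVN1's partners FAU and MRPL49 are highly counted. No other member exceeded 9.98%. Among these, DNAJB9 (9.94%) overlaps THAP5 and PNPLA8, each counted more than DNAJB9. SEC61A1 (7.32%) overlaps RUVBL1, which held 130498 counts. The part of these overlaps in the results was not tested.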

How the data were processed

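The deposited table holds whole-number read counts per gene symbol, made by the authors and not normalized; per the submitters' processing notes, FastQC 0.11.9, HISAT2 2.2.0, featureCounts 2.0.0, DESeq2 1.34.0 and GRCh38.p13 were named, without roles for each, and neither strand setting nor annotation release could be read from those notes. From these counts, edgeR 4.0.16 in R 4.3.3 fitted quasi-likelihood models (TMM scaling, filterByExpr with a minimum count of 10, 1 mean per group) in 3 fits: 12 HT-29 iZEB1 libraries (16978 genes), 6 SW620 libraries (17147 genes) and all 18 (19107 genes). P-values were adjusted over all genes tested (Benjamini-Hochberg), and a gene was called at an adjusted p below 0.05. Standard errors and 95% intervals follow from the fitted fold change and its F statistic. CPM values use TMM factors over all 18 libraries, at totals of 36511596 to 39792807 counts; levels per kb use merged GENCODE 29 exons. The scripts were tested on simulated data.

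Members and gene lists were chosen with earlier results of these data known. The members to be named first in a comparison were HSPA5, XBP1, ATF6, ERN1 and EIF2AK3, with the 4 largest called rises and 4 largest falls. Those rises and falls had to reach 5 CPM and, where 2 groups are compared, not overlap. ERO1B is an exception. Full statistics are not printed for every one of these members in every comparison. At most 3 called genes per list are named, the largest by fold; DDIT3 was named after its values were seen. Replicates 1 to 3 share numbers across groups, but same-numbered libraries did not deviate together in every pair, so the block is an alternative only. Other alternatives were size-factor (RLE) and total-count scaling, no filter on low counts, DESeq2 1.42.0, and leaving out each library. No replicate pair agreed within sampling noise. Promoter windows are from RefSeq (GRCh38.p14) and were matched by symbol; SEC24D, DERL1 and PDIA3 had none.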

Additional observations from a re-analysis of the deposited data

Results flagged for a closer look

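For 13 of the 32 genes the RepSox effect differed between DOX-treated and untreated HT-29 iZEB1 cells, by an interaction term in edgeR's quasi-likelihood test (adjusted p below 0.05; 22.6% of all genes passed). The differences, as the effect with DOX minus the effect without it on the log2 scale, were 0.51 for HSPA5, 0.45 for HSP90B1, 0.29 for DNAJB11, 0.62 for SDF2L1, 0.35 for MANF and 0.46 for CRELD2 among the chaperones. They were 0.45 for CALR, 0.41 for PDIA3, 0.38 for PDIA4 and 0.32 for PDIA6 among the lectins and isomerases, and 0.24 for XBP1. They were negative for HERPUD1 (-0.30) and SEC24D (-0.69). The calls of DNAJB11, SDF2L1, MANF, CRELD2, HERPUD1 and XBP1 were lost in at least 1 alternative, and the other 7 held in each. ZEB1 had an interaction of -3.90 in the same libraries; its part in the other differences was not tested.

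The RepSox effect on SEC24D also differed between the lines, by a term in the fit over all libraries. The effect in SW620 minus that in untreated HT-29 iZEB1 was log2 0.30 (adjusted p = 0.0472), where 10.4% of all genes passed. That call was lost without any of 13 of the 18 libraries taken singly. It was also lost with total-count scaling, without the filter on low counts and with the replicate block.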

How the results depend on the processing

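Over the 32 genes, the 8 comparisons and all alternatives, 4343 of 4544 values kept their side of the threshold, 151 lost a call and 50 gained one. Of values called in the main fit or the alternative, 0 changed direction. Direction was not checked for values called in neither. Calls of members by comparison ranged, on leaving out each library in turn, between 14 and 18 (DOX in DMSO), 19 and 22 (RepSox with DOX), 2 and 5 (RepSox without DOX), 0 and 5 (DOX in RepSox), 7 and 14 (interaction), 3 and 10 (RepSox in SW620), 26 and 28 (SW620 against HT-29 iZEB1) and 0 and 1 (RepSox effect between lines). Calls over all genes for DOX in RepSox ranged between 27 (without replicate 2 of DOX plus RepSox) and 1670 (without replicate 1), against 81; they were 584 without the filter, where 1 member was called, and 264 with DESeq2. For the RepSox effect between lines, member calls were 0 with total-count scaling, 0 without the filter, 2 with DESeq2 and 0 with the replicate block, against 1. The cause of these shifts was not tested. With the replicate block, member calls in the other comparisons were 19 (DOX in DMSO), 24, 4, 0, 13, 7 and 25 in the order above; same-numbered libraries correlated between -0.35 and 0.22. Total-count scaling moved the higher share of all calls to 59.5% (DOX in DMSO, 47.6% with TMM), 47.0% (interaction, 57.4%) and 39.5% (RepSox in SW620, 52.5%). Depth limited ERO1B most, with a median log2 interval half-width of 0.15 over members and 0.44 for the widest (DOX in DMSO).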

Other observations

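In SW620, where 19.5% of all genes were called with RepSox, it left the cytosolic heat shock genes lower or not called (0 higher and 7 lower of 19), whereas 6 of 22 tested genes of the PERK-ATF4-CHOP branch were higher and none lower (27.3% called), and 12 of 13 mitochondrially encoded mRNAs were higher. N-glycan assembly genes counted 3 higher and 0 lower of 27 there, other degradation genes 4 higher and 2 lower of 24, COPII and ER exit genes 1 higher and 2 lower of 24, translocon genes 1 higher and 1 lower of 22, other folding enzymes 4 higher and 4 lower of 29, and other regulators 4 higher and 4 lower of 21; the N-glycan, COPII and translocon lists were called at 11.1%, 12.5% and 9.09%, below the share of all genes. In HT-29 iZEB1 without DOX, where 25.3% of all genes were called, RepSox raised 12 of 27 N-glycan genes and lowered none (44.4% called; ALG3 by log2 0.63), and raised 8 and lowered 2 of 23 branch genes (43.5% called).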
